A study of Mus musculus with 2 samples.

Results

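The collagen chain genes are the protein-coding genes that encode the alpha chains of collagen, taken here as every gene in both libraries' gene tables whose symbol has the form Col, a type number, a and a chain number. The rule found 44 genes on 15 chromosomes, of 27 collagen types, among 21474 named protein-coding genes. They were measured by total RNA-seq in 1 group of 2 newborn mice of strain B6NCrl on postnatal day 0, each library holding both kidneys of 1 pup. The pups were littermates, so the spread between them (n = 2) leaves out variation between litters. The labels state no treatment, genotype change or sex, and no condition was compared. The libraries held 41584961 expected counts in pup 1 and 48823952 in pup 2.

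A collagen molecule is a trimer of alpha chains wound into a triple helix. Glycine recurs along the helical stretch in the repeat Gly-X-Y, where X and Y are often proline and hydroxyproline. Fibrillar collagens (types I, II, III, V, XI, XXIV and XXVII) form the banded fibrils of connective tissue. Collagen IV builds the sheet of basement membranes, which in the kidney lie under every tubule and form the filter of the glomerulus. The other chains attach to fibrils (the FACIT group), form beaded filaments (collagen VI), hexagonal networks (VIII and X) or anchoring fibrils (VII), span the cell membrane (XIII, XVII, XXIII and XXV), or carry heparan sulfate or chondroitin sulfate in and near basement membranes (the multiplexins XV and XVIII).

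The label was checked against the sequences. Translated from the longest coding transcript in the GENCODE M21 annotation, all 44 chains held at least 1 run of 5 or more Gly-X-Y triplets, and the longest run of a chain was never shorter than 23 triplets. The 11 fibrillar chains had the longest runs, at 216 to 344 triplets, and Col3a1 had 344. They had 1 or 2 breaks, counted as any gap between runs of 5 or more triplets and not within the longest run. In Col1a1, 338 of 355 triplets lay in 1 run. The 6 collagen IV chains had more helical residues (1275 to 1332, against 981 to 1092 in the fibrillar chains) but broken at 21 to 26 places, so that their longest runs were 39 to 66 triplets. The FACIT chains ranged between 32 and 113 triplets, the collagen VI chains between 37 and 87, and both multiplexins stood at 30. Coding exons followed the repeat as well. Of the members' 2004 coding exons 61.8% had a length divisible by 9 bases, the length that codes for 1 Gly-X-Y, against 14.0% of 197008 in other protein-coding genes. Exons of exactly 54 bases made up 47.0% of coding exons in fibrillar genes and 4.05% in collagen IV genes, against 0.444% elsewhere.

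**Figure D1:**
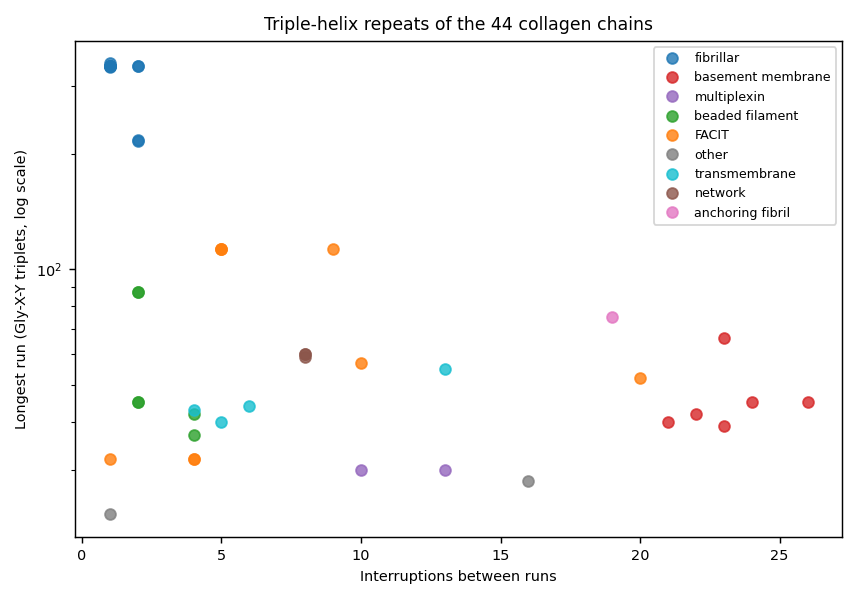
Longest uninterrupted run of Gly-X-Y triplets (vertical axis, log scale) against the number of breaks between runs of 5 or more triplets (horizontal axis), 1 point for each of the 44 chains, coloured by class. The fibrillar chains lie at the upper left with 1 or 2 breaks, and the 6 collagen IV chains at the right with 21 to 26 breaks and runs of 39 to 66 triplets.

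In the newborn kidney 33 of the 44 members reached 1 TPM in both pups, against a background of 61.5% of all protein-coding genes. TPM, transcripts scaled to a fixed total per library, is a level per length, and genes are compared by it here. Where short transcript records hold much of a gene's TPM, its level depends on how reads were divided between records. The detected members covered 20 of the 27 types. Together the members held 0.220% of TPM in pup 1 and 0.196% in pup 2 (0.208 ± 0.0170%, SD, n = 2). Their transcripts are long (a median of 4776 and 4568 nt in pups 1 and 2, against 2440 nt for detected protein-coding genes in both pups), and their part of the reads was larger, 0.798% and 0.742% of expected counts. The median member stood at 5.24 TPM in pup 1 and 5.62 TPM in pup 2, and the median protein-coding gene at 4.81 and 4.62 TPM. In bulk tissue, fewer cells of a type and less RNA per cell cannot be told apart.

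A few chains made up most of the collagen message. The 6 members at 100 TPM or more (Col3a1, Col1a1, Col1a2, Col4a1, Col18a1 and Col4a2) held 78.2% of the members' summed TPM in pup 1 and 76.7% in pup 2. A further 14 members stood at 10 to 100 TPM and 13 at 1 to 10 TPM. By class, fibrillar chains held 57.4 ± 1.47% of the members' TPM and collagen IV 19.2 ± 0.701% (SD, n = 2 here and below). The multiplexins held 9.13 ± 0.104%, collagen VI 6.58 ± 0.268% and the FACIT chains 4.90 ± 0.146%. The transmembrane chains held 0.578 ± 0.0985%, the network chains VIII and X 0.449 ± 0.0383% and collagen VII 0.0512 ± 0.0104%. Col26a1 and Col28a1, which belong to none of these classes, held 1.69 ± 0.328% of TPM but 0.855% of expected counts. In order of level, 26 of 43 neighbouring members lay wholly apart, both pups of one gene above both pups of the next.

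**Figure D2:**
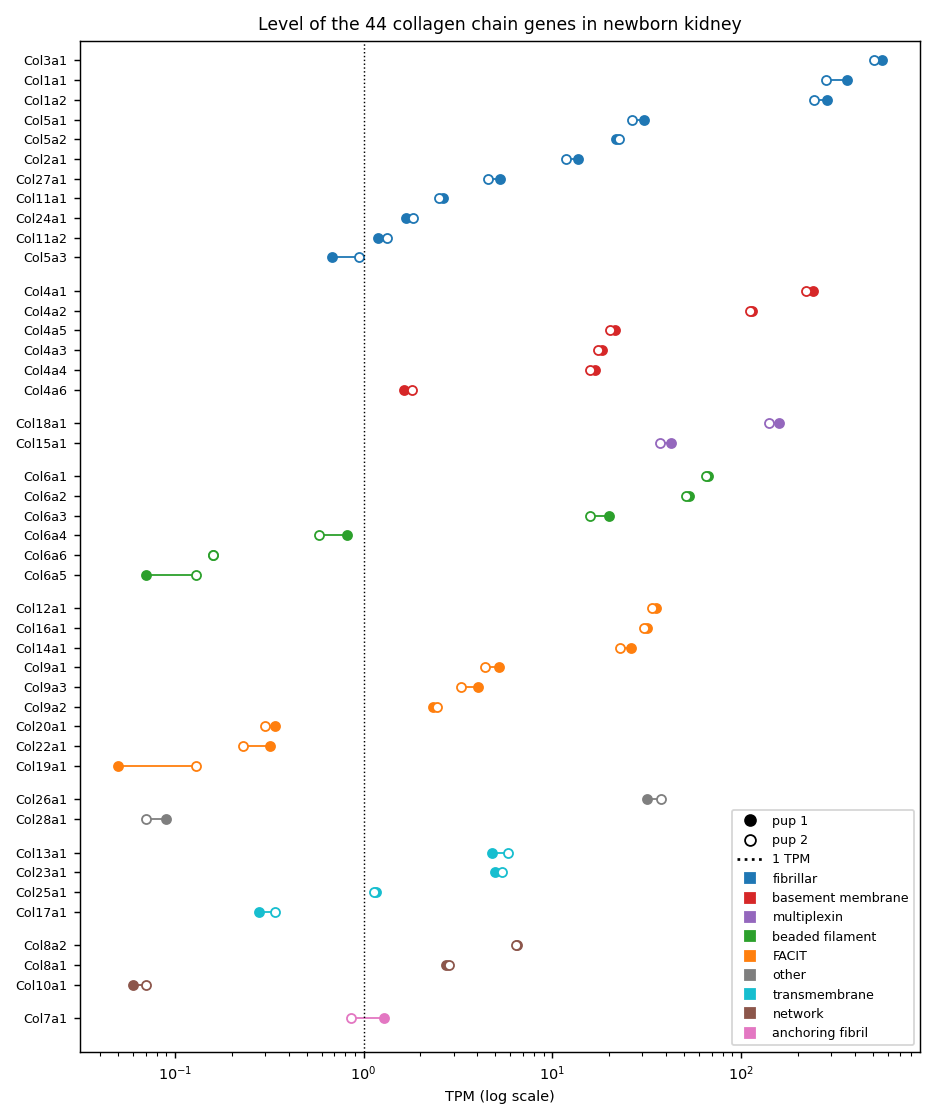
Level of each of the 44 collagen chain genes in TPM (horizontal axis, log scale), grouped and coloured by class, with a filled circle for pup 1, an open circle for pup 2 and a line joining them. The dotted line marks 1 TPM, and the 33 members with both circles at or right of it counted as detected. Col3a1 stands highest at 560.4 and 507 TPM, and the circles of 26 of 43 neighbours in the order of level lie wholly apart.

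**Figure D3:**
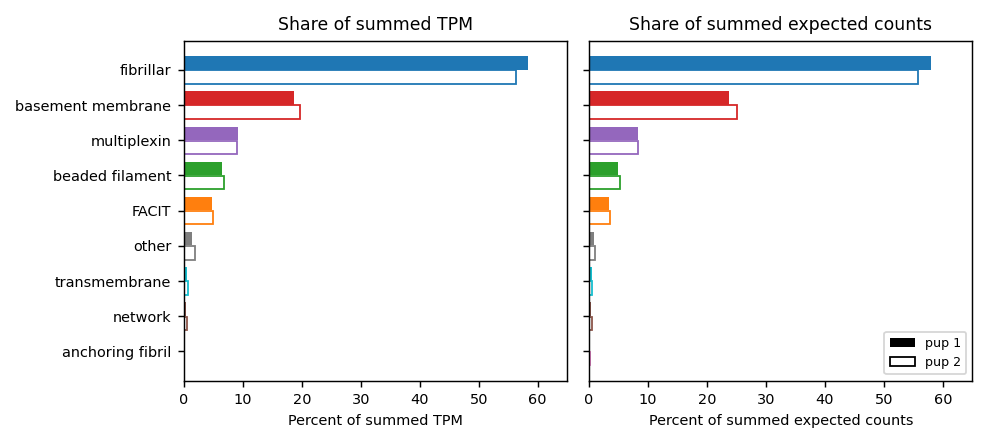
Percent of the members' summed TPM (left) and of their summed expected counts (right) held by each class, with a filled bar for pup 1 and an open bar for pup 2. Fibrillar chains hold the most on either measure, and the collagen IV bars are longer by counts (a mean of 24.4%) than by TPM (19.2%).

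Among the fibrillar chains the genes of collagens III and I stood far above the rest. Col3a1, the sole chain of collagen III (chromosome 1, 45311538 to 45349706, mm10), had 560.4 TPM in pup 1 and 507 TPM in pup 2. It ranked 253 among protein-coding genes by mean level. Col1a1, the alpha1 chain of collagen I (chromosome 11, 94936224 to 94953042), had 364 and 282 TPM. Col1a2, its alpha2 chain (chromosome 6, 4504814 to 4541544), had 284 and 244 TPM. The ranges of Col1a1 and Col1a2 overlapped, and Col3a1 lay above both in each pup. The collagen I molecule usually holds more alpha1 than alpha2 chains. The ratio of Col1a1 to Col1a2 was 1.28 in pup 1 and 1.16 in pup 2, above 1 in both. It was not called beyond the spread between pups, because its mean log2 of 0.28 was under the between-pup difference of Col1a1 (log2 0.37 by TPM).

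The minor fibrillar chains followed at lower levels. Collagen V, which is built into collagen I fibrils and limits their width, had Col5a1 at 30.7 and 26.5 TPM and Col5a2 at 21.8 and 22.6 TPM. The remaining collagen V chain, Col5a3, stayed under 1 TPM, at 0.68 and 0.94. Col2a1, the collagen II gene best known from cartilage, had 13.7 and 11.8 TPM. Col27a1 had 5.26 and 4.57 TPM, Col11a1 2.65 and 2.52 TPM, Col24a1 1.68 and 1.83 TPM, and Col11a2 1.19 and 1.33 TPM. In all, 10 of 11 fibrillar genes were detected, and Col5a3 was the exception.

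The promoters of the leading fibrillar genes are shown because the pair differs in base content and motifs although both genes are among the 3 highest. RefSeq (GRCm38.p6) gave a window from 250 bases before to 50 bases after the start for 35 of the 44 members, some with 2 starts, and Col1a1 is among the 9 without one. Capitals mark matches on either strand to 3 motifs. The TATA box core was searched as TATAAA. The CCAAT box was searched as its own letters. The GC box was searched as GGGCGG. No matches overlap in the windows printed. Matches were counted anywhere in a window, whatever their distance from the start, and are a description of the sequence only.
Col3a1, chr1:45311288-45311587, plus strand: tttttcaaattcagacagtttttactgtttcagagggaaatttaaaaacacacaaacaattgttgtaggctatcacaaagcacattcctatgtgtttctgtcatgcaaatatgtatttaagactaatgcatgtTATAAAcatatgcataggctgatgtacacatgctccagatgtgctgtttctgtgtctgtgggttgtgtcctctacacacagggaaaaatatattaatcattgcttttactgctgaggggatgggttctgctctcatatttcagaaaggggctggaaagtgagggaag
Col1a2, chr6:4505368-4505667, plus strand: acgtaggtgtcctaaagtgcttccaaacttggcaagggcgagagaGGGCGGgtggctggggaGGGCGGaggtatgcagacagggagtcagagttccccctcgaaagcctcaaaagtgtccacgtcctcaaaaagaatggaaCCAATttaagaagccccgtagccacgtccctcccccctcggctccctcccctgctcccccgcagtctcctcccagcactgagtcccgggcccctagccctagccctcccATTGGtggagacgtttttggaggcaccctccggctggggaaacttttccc
The Col3a1 window held 1 TATAAA and was poor in G and C (37.7%), whereas that of Col1a2 held 2 CCAAT and 2 GGGCGG matches at 61.0% G and C. The Col1a2 window lies within the M21 gene, whose annotated start is further upstream. Over the members' 38 windows GGGCGG occurred in 60.5%, against 35.6% of 32813 other windows. Those other windows cover 26990 genes and are not limited to protein-coding ones. CCAAT occurred in 34.2%, against 37.4% of other windows, and TATAAA in 13.2%, against 13.6%. The median G and C content was 59.8% in member windows and 52.7% in others.

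Collagen IV has 6 chains in 3 head-to-head gene pairs, and all 6 were detected. Col4a1 and Col4a2, whose chains form the basement membrane network found in nearly all tissues, led at 239.7 and 220.01 TPM for Col4a1 and 114 and 112 TPM for Col4a2. Col4a5, Col4a3 and Col4a4 encode the network of the mature glomerular basement membrane, and their loss causes Alport syndrome. Col4a5 had 21.4 and 20.1 TPM, Col4a3 18.4 and 17.5 TPM, and Col4a4 16.9 and 15.9 TPM. Col4a6, which pairs with Col4a5 in the membrane of Bowman's capsule and some ducts, had 1.63 and 1.80 TPM. The order of these 6 was the same in both pups, with no overlap between neighbours within the class.

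The start sites of these pairs lie close together on opposite strands, and the windows around them are shown because each pair is arranged head to head while the ratio of its genes' levels differs from pair to pair.
Col4a1, chr8:11312777-11313076, minus strand: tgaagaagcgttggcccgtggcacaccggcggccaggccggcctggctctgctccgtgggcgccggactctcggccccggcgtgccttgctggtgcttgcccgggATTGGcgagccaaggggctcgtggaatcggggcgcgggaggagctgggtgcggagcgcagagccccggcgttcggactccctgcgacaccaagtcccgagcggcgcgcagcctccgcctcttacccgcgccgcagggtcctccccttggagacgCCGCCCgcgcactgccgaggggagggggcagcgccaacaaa
Col4a2, chr8:11312555-11312854, plus strand: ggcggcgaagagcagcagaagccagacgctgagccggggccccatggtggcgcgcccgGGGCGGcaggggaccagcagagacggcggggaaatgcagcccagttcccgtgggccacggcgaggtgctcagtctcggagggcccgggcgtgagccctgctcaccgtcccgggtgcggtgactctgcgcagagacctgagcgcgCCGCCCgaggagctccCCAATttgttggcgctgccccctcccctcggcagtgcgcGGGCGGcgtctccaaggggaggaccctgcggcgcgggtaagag
Col4a4, chr1:82586800-82587099, minus strand: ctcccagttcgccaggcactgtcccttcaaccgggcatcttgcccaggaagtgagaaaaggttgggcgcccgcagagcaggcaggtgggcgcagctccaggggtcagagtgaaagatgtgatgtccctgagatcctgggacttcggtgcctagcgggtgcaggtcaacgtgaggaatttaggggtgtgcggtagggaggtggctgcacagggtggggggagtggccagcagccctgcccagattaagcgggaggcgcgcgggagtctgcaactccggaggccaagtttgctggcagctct
Col4a5, chrX:141475169-141475468, plus strand: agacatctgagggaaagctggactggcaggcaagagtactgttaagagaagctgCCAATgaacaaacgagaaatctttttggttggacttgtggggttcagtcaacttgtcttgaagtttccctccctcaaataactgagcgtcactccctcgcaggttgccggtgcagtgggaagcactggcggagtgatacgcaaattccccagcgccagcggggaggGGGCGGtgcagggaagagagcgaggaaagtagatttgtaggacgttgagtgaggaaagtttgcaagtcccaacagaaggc
Col4a6, chrX:141474027-141474326, minus strand: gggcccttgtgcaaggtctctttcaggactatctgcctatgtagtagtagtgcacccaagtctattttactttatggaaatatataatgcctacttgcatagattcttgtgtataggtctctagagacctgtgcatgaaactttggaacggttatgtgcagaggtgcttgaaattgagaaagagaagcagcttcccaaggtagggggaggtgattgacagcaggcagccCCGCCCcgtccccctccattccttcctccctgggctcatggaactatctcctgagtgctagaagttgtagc
Capitals mark the same 3 motifs. The annotated Col4a1 and Col4a2 genes overlap by 22 bases and lie head to head on chromosome 8 (11198423 to 11312826 and 11312805 to 11449287), and their windows share 78 bases. The Col4a1 window held 1 match to the CCAAT box and 1 to the GC box, and the Col4a2 window 1 and 3. Col4a1 stood at 2.09 and 1.97 times Col4a2 in pups 1 and 2. Col4a3 and Col4a4 (chromosome 1, 82586921 to 82722059 and 82448423 to 82586849) start 72 bases apart, and the Col4a4 window, which also covers the start of Col4a3, held none of the 3 motifs. Their gene levels were close, with ratios of Col4a3 to Col4a4 of 1.09 and 1.10. Col4a5 and Col4a6 (chromosome X, 141475385 to 141689234 and 141165403 to 141474076) start 1309 bases apart, and the ratio of Col4a5 to Col4a6 was 13.1 and 11.2. Each of these 3 ratios was beyond the spread between pups.

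Counting only protein-coding transcripts changed 1 of these pairs. A retained-intron transcript of 1263 nt, Col4a4-202, held 46.3% and 43.8% of Col4a4's TPM in pups 1 and 2. The coding transcript Col4a4-201 then had 9.08 and 8.95 TPM, against 18.3 and 17.5 TPM for the coding transcripts of Col4a3, a ratio of 2.01 and 1.95. By reads, Col4a4-201 took 90.9% and 91.7% of the gene's expected counts, since it is 10108 nt long. For Col4a1 and Col4a2 the coding ratio was 2.09 and 1.98, and for Col4a5 and Col4a6 13.0 and 11.03. Col4a3 stood below Col4a5 by gene TPM (ratios of 0.861 and 0.871) and by coding TPM (0.863 and 0.881), but above it by expected counts per kb of the longest transcript (1.17 and 1.20). The coding TPM of Col4a5 includes Col4a5-204, a record with an incomplete coding region, at 11.8 and 11.3 TPM. The full-length forms of Col4a5 summed to 9.41 and 8.59 TPM, below the 18.3 and 17.5 TPM of Col4a3. All 6 markers of podocytes, cells known to make the alpha3, alpha4 and alpha5 chains, were detected, with summed levels of 253 and 252.5 TPM. Of all protein-coding genes 61.5% were detected, and the part of podocytes in the levels of these chains was not tested.

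Col4a5 also differed from the other chains in its transcripts. Its leading transcript by TPM, Col4a5-204 (55.0% and 56.0%), is a 3511-nt record with an incomplete coding region, and the full-length Col4a5-202 held 40.3% and 41.0%. The full-length forms include a pair of 9-base exons (43 and 44 of Col4a5-201), which Col4a5-204 skips. The forms that include them summed to 9.41 and 8.59 TPM, against 11.8 and 11.3 TPM for the form without them, an inclusion of 44.4% and 43.3%. In human kidney, forms of the gene with short extra exons of this kind are known. These values are estimates of an allocation model between overlapping transcripts, not counts of junction reads.

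Both multiplexins were detected. Col18a1 (chromosome 10, 77052178 to 77166548), which carries heparan sulfate and gives rise to the fragment endostatin, had 159.7 and 140.3 TPM. Col15a1, its relative at the outer face of basement membranes, had 42.8 and 37.3 TPM, a ratio to Col18a1 of 0.268 and 0.266. Col18a1 has alternative first exons. Its short form Col18a1-202, of 1315 residues in M21 and starting at the upstream first exon, held 78.8% and 78.6% of the gene's TPM. Col18a1-203 and Col18a1-201, which start downstream and encode longer N-termini (1527 and 1774 residues), held 16.5% and 16.4%, and 4.28% and 4.605%. The short form is known from the basement membranes of vessels and epithelia, and the longer ones from liver.

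Collagen VI forms the beaded microfilaments around cells. Col6a1 had 66.7 and 65.01 TPM and Col6a2 52.9 and 51.0 TPM, with a ratio of 1.26 and 1.27. Col6a3, the largest of the main chains, had 20.02 and 15.8 TPM over all its transcripts. Most of that TPM, 60.0% and 57.3%, lay in a retained-intron transcript of 646 nt, and the coding transcripts of Col6a3 had 7.78 and 6.65 TPM. By reads, the coding transcript Col6a3-202 of 9001 nt took 86.9% and 88.4% of the gene's expected counts. The ratio of Col6a3 to Col6a1 was 0.300 and 0.244 by gene TPM and 0.117 and 0.102 by coding TPM. Within the coding transcripts of Col6a3, exons 3, 4 and 6 of Col6a3-201 (618, 603 and 600 bases), which encode von Willebrand factor A-like domains of the N-terminus, were in forms that held 6.04% to 6.15% of TPM in pup 1 and 6.17% in pup 2. The remaining chains of this class, Col6a4, Col6a5 and Col6a6, adjoin each other on chromosome 9 and stayed under 1 TPM. Col6a4 had 0.82 and 0.58 TPM, Col6a6 0.16 TPM in both pups, and Col6a5 0.07 and 0.13 TPM. Col6a5 and Col6a6 share 3.42% and 3.54% of their 50-base windows with each other, so part of their reads is uncertain.

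The FACIT chains sit on the surface of fibrils. Col12a1, a large chain of dense connective tissue, had 35.6 and 33.95 TPM. Col16a1 had 31.7 and 30.6 TPM, and Col14a1, which binds fibrils near collagen I, had 26.1 and 22.9 TPM. The 3 chains of collagen IX, a partner of collagen II, were detected at low levels. Col9a1 had 5.21 and 4.39 TPM, Col9a3 4.06 and 3.28 TPM and Col9a2 2.32 and 2.44 TPM. Col9a1 was read from its downstream first exon in 99.3% or more of TPM: the short form Col9a1-202 (680 residues) had 5.21 and 4.36 TPM, and the long form Col9a1-201 (921 residues), known from cartilage, had 0 and 0.03 TPM. Col20a1, Col22a1 and Col19a1 were under 1 TPM in both pups, between 0.05 and 0.34 TPM.

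The estimates for the 3 leading FACIT chains were spread over short and non-coding records. In Col12a1 the 1784-nt Col12a1-204, with an incomplete coding region, held 54.9% and 55.5% of TPM, and the 11511-nt Col12a1-201 held 18.3% and 18.7% of TPM but 54.4% and 55.0% of reads. In Col16a1 the leading record by TPM was the non-coding Col16a1-207 of 833 nt, at 43.0% and 41.5%, and coding transcripts held 47.4% and 49.8%. By reads, the coding Col16a1-201 led with 41.9% and 44.1%. In Col14a1 the 2085-nt Col14a1-204 held 43.6% in both pups, while the longer Col14a1-203 and Col14a1-201 differed between pups (34.5% and 21.98% in pup 1, 49.4% and 5.36% in pup 2). Col12a1 stood above Col14a1 by gene TPM (1.36 and 1.48). The pair was level by coding TPM (0.998 and 1.10) and in reverse order by expected counts per kb of the longest transcript (0.661 and 0.723). Coding TPM here includes the short Col12a1-204 (19.5 and 18.8 TPM) and Col14a1-204 (11.4 and 9.99 TPM). The long Col12a1-201 had 6.52 and 6.33 TPM, below the 9 and 11.3 TPM of the long Col14a1-203.

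Outside these classes, Col26a1 had 31.9 and 37.6 TPM. It is a short chain (440 residues, with 34 triplets in 2 runs) and was the member of highest level with more TPM in pup 2 than in pup 1. The network chains Col8a2 and Col8a1, known from vessel walls and the cornea, had 6.48 and 6.44 TPM and 2.74 and 2.82 TPM. Of the transmembrane chains, Col13a1 had 4.79 and 5.85 TPM, Col23a1 4.97 and 5.39 TPM, and Col25a1 1.16 and 1.13 TPM. Col17a1, the hemidesmosome collagen of skin, was under the threshold at 0.28 and 0.34 TPM, as were Col28a1 (0.09 and 0.07 TPM) and the hypertrophic cartilage gene Col10a1 (0.06 and 0.07 TPM).

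In all, 11 members missed 1 TPM in at least 1 pup. The member nearest the line was Col7a1, the anchoring fibril collagen, at 1.29 TPM in pup 1 and 0.86 TPM in pup 2, and just inside it lay Col25a1. Each of the 11 had at least 5 expected counts in each pup, where a count of 0 would allow up to 3 counts. They held 0.189% and 0.194% of the members' TPM. The order of levels among them was mostly not resolved. Overlapping neighbours were Col25a1 with Col7a1, Col7a1 with Col5a3, Col5a3 with Col6a4, Col20a1 with Col17a1, Col17a1 with Col22a1, and the last 4 members in a row. Higher in the order, the overlapping neighbours were Col1a1 with Col1a2, Col12a1 with Col26a1, Col16a1 with Col5a1, Col6a3 with both Col4a3 and Col4a4, Col24a1 with Col4a6, and the run Col13a1, Col23a1, Col27a1 and Col9a1.

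Markers of tissues that might be carried over with the kidney are given because several low chains are known from them. Of 8 cartilage markers 3 were detected, and the list summed to 29.7 and 28.3 TPM, most of it Sox9 (23.1 and 23.4 TPM), which kidney cells also express. The others were Hapln1 (3.14 and 2.65 TPM) and Cnmd (2.58 and 1.36 TPM). The aggrecan gene Acan had 0.16 and 0.08 TPM. Of 6 bone markers 1 was detected, Spp1 (1456 and 1267 TPM), which kidney tubules also make, and Bglap was at 0 in pup 1. Of 7 epidermal markers 3 were detected (Krt14, Krt10 and Lor, at 1.18 to 10.5 TPM), with list sums of 14.3 and 19.4 TPM and Dsg3 at 0 in both pups. Of 6 skeletal muscle and tendon markers 3 were detected (Acta1, Tnnt3 and Scx), summing with the rest to 19.3 and 19.9 TPM. None of 6 adrenal markers reached 1 TPM, with sums of 1.83 and 2.27 TPM. The markers named here other than those at 0 were chosen after their values were seen. Their part in the levels of Col2a1, Col9a1 to Col9a3, Col11a1, Col11a2, Col7a1 and Col17a1 was not tested. Among the kidney's own cell types, all 8 stromal, 7 mural, 7 endothelial, 7 ureteric and 5 proximal tubule markers were detected. The share of all protein-coding genes detected was 61.5%.

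For Col2a1, the forms of the message were estimated beside its level. Exon 2 of Col2a1-201 (204 bases) encodes a cysteine-rich domain that is kept in the form IIA, known from precartilage and non-cartilage tissues, and skipped in the form IIB of mature cartilage. The form with exon 2 had 8.11 and 8.02 TPM and the form without it 4.73 and 3.47 TPM, an inclusion of 63.2% and 69.8%. These values too are estimates of an allocation model, not counts of junction reads. The tissue that the forms came from was not tested.

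Over the 20 members at 10 TPM or more, 18 had a protein-coding leading transcript and 16 had at least 90% of their TPM in coding transcripts. The leading transcript was coding and held 80% or more in 9 of them, among them Col1a1 (99.8% and 99.7%), Col4a1 (99.9% in both pups) and Col6a1 (99.9% in both). Col3a1 was led by the 5564-nt Col3a1-201 (75.8% and 75.1%), with 23.0% and 24.4% in a 737-nt record. By reads Col3a1-201 held 96.3% and 96.2%. Col15a1 was split between the 1755-nt Col15a1-203 (51.9% and 52.8%) and the full-length Col15a1-202 (46.5% and 46.3%), the reverse of their order by reads, where Col15a1-202 took 72.0% and 72.3%. Col26a1-202 held 64.8% and 68.4% of Col26a1. By reads, the leading transcript was protein-coding in 43 of 44 members in pup 1 and 44 of 44 in pup 2. The exception was Col19a1, whose 8 reads in pup 1 were all assigned to a processed transcript. Counted over coding transcripts alone, 31 members reached 1 TPM in both pups, because Col24a1 (0.67 and 0.65 TPM) and Col25a1 (0.81 and 0.83 TPM) did not.

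**Figure D4:**
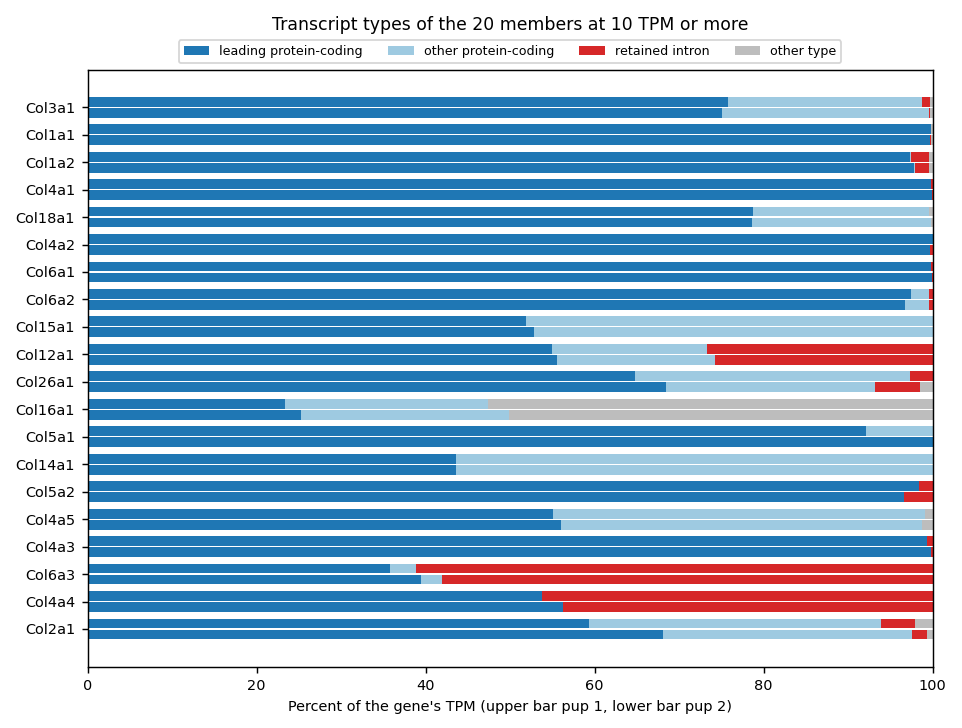
Share of each gene's TPM (horizontal axis, percent) held by its leading protein-coding transcript, other protein-coding transcripts, retained-intron transcripts and other types, for the 20 members at 10 TPM or more in order of level, with the upper bar for pup 1 and the lower for pup 2. Retained-intron transcripts hold about as much as or more than coding ones in Col6a3 and Col4a4, and in Col16a1 other non-coding types do, alike in both pups.

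Chains of 1 molecule or family were compared as ratios within each pup. Of 20 pairs of chains that share a molecule, a family or a locus, 19 differed by more than the larger between-pup difference of their genes, with the same sign in both pups. The exception was Col1a1 with Col1a2, whose ratio was above 1 in both pups but smaller than the between-pup difference. Between-pup differences were small (median absolute log2 ratio by TPM of 0.13 over all genes tested), so a pair passes at a small ratio. The share of other gene pairs that pass was not computed, so the count does not set collagen chains apart. Col4a3/Col4a5 and Col12a1/Col14a1 were reversed by expected counts per kb of the longest transcript. Col3a1 stood at 25.7 and 22.5 times Col5a2, and Col5a3 at 0.0222 and 0.0355 of Col5a1. Ratios that include a chain near or under 1 TPM moved when 1 TPM was added before the log: Col5a3/Col5a1 had a mean log2 ratio of -4.03 in place of -5.16, and Col4a5/Col4a6 of 3.002 in place of 3.60. Col1a1 stood under Col3a1 at 0.649 and 0.556. Col5a1 exceeded Col5a2 by 1.41 and 1.17 times, and Col11a1 stood at 0.0864 and 0.0951 of Col5a1. Col9a1 was 2.25 and 1.80 times Col9a2, and Col8a1 0.423 and 0.438 of Col8a2.

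**Figure D5:**
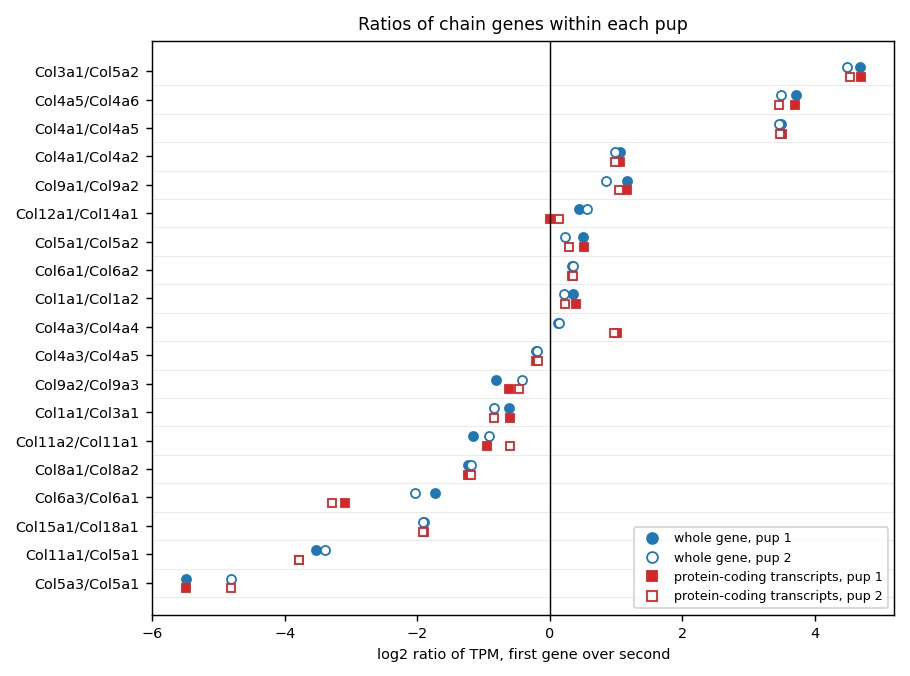
log2 ratio of TPM between the members of 19 chain pairs (first gene over second), by whole gene (blue circles) and by protein-coding transcripts alone (red squares), filled for pup 1 and open for pup 2. Circles and squares lie together in most pairs and part in Col4a3/Col4a4, Col6a3/Col6a1 and Col12a1/Col14a1. Col9a1/Col19a1 is left out because Col19a1 had no coding TPM in pup 1.

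Between the pups the collagen genes moved about as much as other genes of like level. Of the 37 members tested, which had 50 expected counts in one pup or both, 0 were 1.5-fold or more higher in pup 1 and 0 were 1.5-fold or more lower, on the log2 scale of CPM (counts scaled to a fixed library total) with TMM factors and 0.1 added. The background was 0.700% of 15150 genes tested in the first direction and 1.87% in the second. At shares this low, 0 of 37 does not set the members apart. At 100 TPM or more the median absolute log2 ratio was 0.078 in members and 0.078 in tested protein-coding genes. It was 0.063 and 0.076 at 10 to 100 TPM, and 0.14 and 0.13 at 1 to 10 TPM. With 1 library per pup this is a description with no test. By any margin 16 of the 37 were higher in pup 1, against 48.3% of all genes tested, and the median log2 ratio of pup 1 over pup 2 was -0.03 in members and -0.01 in all genes tested. By deposited TPM the sign of the median turned for both, to 0.069 in members and 0.08 in all genes. Among the members at 100 TPM or more the largest ratio was that of Col1a1 (1497 CPM in pup 1 and 1236 CPM in pup 2, log2 ratio 0.28, counting interval 0.26 to 0.29), above the 95th percentile of absolute ratios, 0.26, of 1540 genes at that level.

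The 3 widest ratios belonged to Col5a3, Col13a1 and Col6a4, all under 10 TPM. Col5a3 had 2.88 CPM in pup 1 and 4.28 CPM in pup 2 (log2 ratio -0.55, counting interval -0.90 to -0.24). Col13a1 had 8.41 and 11.7 CPM (-0.47, interval -0.67 to -0.28), and Col6a4 2.41 and 1.86 CPM (0.36, interval -0.05 to 0.80). Col26a1 had 59.1 and 71.6 CPM (-0.28, interval -0.35 to -0.20). The intervals are exact binomial at 95% and cover counting error only. The order of the pups by TPM and by CPM differed in 12 members. The share of all genes in which it differed was not computed. Over all genes tested the median log2 ratio was 0.08 by TPM and -0.01 by CPM, so a gene with a ratio near 0 can turn at a like length. Col4a2 turned with log2 ratios of 0.04 by TPM and -0.05 by CPM, at model lengths of 6450 and 6433 nt in pups 1 and 2. Col7a1 differed by more, with 1.29 TPM in pup 1 and 0.86 TPM in pup 2 but 5.01 and 5.93 CPM. Its model lengths were 5590 and 9250 nt, since its reads in pup 1 were assigned in part to short retained-intron records and in pup 2 to Col7a1-202 alone.

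Genes whose products fold, export and bind collagen are given beside the chains. Of all protein-coding genes, 61.5% passed the same level, and the lists of export and of receptors were near that share. All 18 genes of collagen folding and modification were detected. They were led by the collagen chaperone Serpinh1 (750.3 and 607 TPM), the prolyl isomerase Ppib (582 and 586 TPM), P4hb, a subunit of prolyl 4-hydroxylase (563 and 513 TPM), and Crtap, part of the prolyl 3-hydroxylase complex (116 and 107 TPM). The lowest was P4ha3 (1.69 and 2.13 TPM), an alternative catalytic subunit of prolyl 4-hydroxylase. Of 18 genes of export, cleavage and crosslinking 12 were detected, led by Pcolce, an enhancer of procollagen C-proteinase (107.9 and 93.5 TPM), the export factors Mia2 (67.7 and 70.2 TPM) and Mia3 (51.4 and 48.5 TPM), and the lysyl oxidase family gene Loxl1 (49.7 and 49.2 TPM). The lowest was Tll2 (0.01 TPM in both pups), a protease of the Bmp1 family.

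Partners in the matrix, receptors and degradation genes are given by list, beside the same share of 61.5% of all protein-coding genes. Of 14 fibril partner genes 12 passed, led by the collagen-binding protein Sparc (1265 and 1079.7 TPM), decorin, Dcn (142 and 148 TPM), fibronectin, Fn1 (83.1 and 71.5 TPM), and biglycan, Bgn (76.2 and 76.3 TPM). The lowest was keratocan, Kera (0.05 and 0.03 TPM), best known from the cornea. All 11 basement membrane partners of collagen IV passed, led, after Sparc, by the laminin chains Lamb1 (117 and 104 TPM) and Lamc1 (88.4 and 84.6 TPM) and agrin, Agrn (65.8 and 61.0 TPM), and lowest in the laminin chain Lama1 (12.5 and 10.9 TPM). Of 10 collagen receptor genes 7 passed. The integrin chain Itgb1 (257 and 242 TPM), the discoidin receptor Ddr1 (75.8 and 69.4 TPM), Itga1 (20.9 and 19.7 TPM) and Ddr2 (19.3 and 15.6 TPM) led, and the platelet receptor Gp6 was lowest (0.03 TPM in both pups). Of 12 genes of collagen degradation 10 passed, led by the prolidase gene Pepd (142 and 119.9 TPM), the matrix metalloproteinases Mmp14 (91.6 and 82.4 TPM) and Mmp2 (84.5 and 80.8 TPM) and the inhibitor Timp3 (82.1 and 69.7 TPM). The collagenase gene Mmp13 was lowest (0.14 and 0.27 TPM).

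Many collagen genes share a match to the miR-29 family, microRNAs known to act on collagen messages in several tissues. The mature forms in RefSeq (GRCm38.p6) share 1 seed, bases 2 to 8, shown in capitals. miR-29b is made from 2 loci.
mmu-miR-29a-3p: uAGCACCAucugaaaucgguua
mmu-miR-29b-3p: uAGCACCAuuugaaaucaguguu
mmu-miR-29c-3p: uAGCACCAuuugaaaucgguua
The 7-base match to this seed, TGGTGCT on the sense strand, was counted in the longest annotated 3′ UTR of each gene. It occurred in 25 of 44 members (56.8%), against 13.0% of 20977 other protein-coding genes, at 0.693 matches per kb in members and 0.105 in others. The median 3′ UTR was 1033 nt in members and 960.0 nt in others. All 6 collagen IV genes and 9 of 11 fibrillar genes had a match, and Col1a2 and Col11a2 did not. By contrast, a match was found in 2 of 6 collagen VI genes, 3 of 9 FACIT genes and 1 of 4 transmembrane genes. In 16 members a match was followed by A. Sites of 4 leading members are shown with the seed match in capitals.
Col3a1, site starting at base 235 of the 3′ UTR: tgtctcaaTGGTGCTataa
Col1a1, site starting at base 919 of the 3′ UTR: ggaatttcTGGTGCTatag
Col4a1, site starting at base 33 of the 3′ UTR: tcacaacaTGGTGCTactc
Col4a2, site starting at base 43 of the 3′ UTR: ggccacgtTGGTGCTtatc
The microRNAs themselves were not measured in these libraries of RNA longer than 200 nt, and a match is a description of the sequence only.

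The counts of most members rest on sequence of their own. Of the 44 members 33 shared no 50-base window of their transcripts with another gene, 8 shared under 1%, and the 3 above that were Col26a1 (1.85%) and the pair Col6a5 and Col6a6. In 13 members an exon overlaps an exon of another gene, most of them low antisense or non-coding genes. The overlap with the highest partner apart from Col4a1 with Col4a2 was that of Col10a1 with Nt5dc1 (13.1 and 11.9 TPM), over 18 bases on the opposite strand. Whether counting used strand is not given in the sources used here, so such reads cannot be told apart.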

How the data were processed

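Total RNA-seq libraries of both kidneys of each of 2 newborn littermates were made, per the labels, using 10 ng of spiked RNA over 200 nt in length that had been extracted by the mirVana method. For each library the authors deposited tables of genes and of transcripts, which per the file headers hold expected counts (estimated, not normalized), posterior mean counts, TPM, posterior mean TPM, FPKM and each transcript's percent of its gene. An accompanying text names mm10 and GENCODE M4. Aligner, quantifier and strand setting were not given in the sources used here. These estimates divide reads between overlapping transcripts by a model, so shares of short records nested in long ones are uncertain.

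Genes were matched by Ensembl identifier to GENCODE M21 on GRCm38, which gave names, coordinates and transcript types. Of the members' 201 transcripts 3 are not in M21. Depth was 41584961 and 48823952 expected counts over 69691 features. A count of 0 allows 3 counts, or 0.0721 and 0.0614 CPM, and floors and intervals cover counting error only. Levels are deposited TPM, detection is 1 TPM in both pups, and errors are SD over 2 pups. Ratios between pups are log2 of CPM + 0.1 with TMM factors (edgeR 4.0.16) for genes with 50 expected counts in either pup. A chain ratio was called beyond the spread when its mean log2 exceeded the larger between-pup log2 difference of its genes. Triple-helix runs and exons come from the longest coding transcript in M21, 3′ UTRs from the coding transcript with the longest one, promoters and microRNAs from RefSeq tables. The design named RefSeq proteins for the runs, and M21 translations were used in their place. With 1 group there was no test and no p-value. The members, classes, pairs and lists were chosen with earlier results of these data known. Named were all members, the 4 highest and the lowest gene of each pathway list, markers at 0, and transcripts of members at 10 TPM or more led by a non-coding record or one under 80%. A marker list is not reported here. The ratio step was tested on simulated data. Alternatives were other quantities, thresholds, scalings (including size factors from DESeq2 1.42.0) and leaving out each pup. Other software was R 4.3.3, Matplotlib 3.10.9, SciPy 1.17.1, NumPy 2.4.6, pandas 2.3.3 and Python 3.11.15.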

Additional observations from a re-analysis of the deposited data

How the results depend on the processing

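Apart from leaving out a pup, 153 values were recomputed under an alternative, and 96 of them moved by no more than the spread between pups or, for counts, by no more than 1.5 times. Leaving out 1 of 2 pups always moves a mean by less than the SD, so it shows nothing of how stable such a value is. Members detected numbered 21 at a threshold of 5 TPM, against 33 at 1 TPM. The members' share was 0.243% of protein-coding TPM, 0.230% of TPM over Ensembl genes without mitochondrial genes and genes under 300 nt, and 0.770% of expected counts, against 0.208% of all TPM. The median member stood at 17.96 TPM over detected members only, against 5.25 TPM over all. By expected counts in place of TPM, the class shares were 24.4% for basement membrane, 8.29% for multiplexin, 5.11% for beaded filament, 3.46% for FACIT, 0.855% for the other chains, 0.394% for network and 0.0713% for anchoring fibril. By posterior mean TPM the FACIT share was 5.06% and that of anchoring fibril 0.0779%. Scaling by ERCC spike-in counts, which made up 0.000738% and 0.000961% of counts in pups 1 and 2, moved the median log2 ratio of pup 1 over pup 2 to 0.40 in all genes and to 0.37 in members. Under it 2 members, Col1a1 and Col6a4, passed 1.5-fold. With at least 10 expected counts, and with no filter, 2 members passed (Col19a1 and Col6a5, with 8 to 42 counts). By deposited TPM the median ratio was 0.069, against -0.03. By expected counts per kb of the longest transcript, Col4a3/Col4a5 had a log2 ratio of 0.25 and Col12a1/Col14a1 of -0.53, the reverse of their direction by TPM. With log2(TPM + 1) in place of log2 TPM, the ratios of Col5a3/Col5a1 (-4.03 against -5.16), Col4a5/Col4a6 (3.002 against 3.60) and Col9a1/Col19a1 (2.41 against 5.89) moved by over 1.5 times. Over coding transcripts alone, Col9a1/Col19a1 gave no value because Col19a1 had no coding TPM in pup 1. The cause of these shifts was not tested. Leaving out a pup left 33 to 34 members detected, a share of 0.196% to 0.220% and a median of 5.24 to 5.62 TPM. No paired analysis was possible because there is 1 group. Depth limits the members with few counts, whose levels below 1 TPM were mostly not in a resolved order.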
